A study of Mus musculus with 12 samples.

Results

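The proteasome subunit genes are the mouse genes whose symbols run from Psma to Psmg followed by a number, leaving out the interferon-inducible catalytic subunits Psmb8, Psmb9 and Psmb10. RefSeq lists 45 such genes, the array annotation names 44 of them, and 37 were tested because a probe was detected on at least 2 of 12 arrays. All 37 were in fact detected on 12 of 12 arrays. The 37 genes comprise 4 of the 20S alpha ring, 7 of the 20S beta ring, 6 ATPases and 3 other subunits of the 19S base, 7 of the 19S lid, 3 chaperones of 19S assembly, 4 activators and 3 chaperones of 20S assembly. Psmf1 had no annotated probe, and Psma1, Psma3, Psma6, Psma8, Psmb11, Psmd3 and Psmg4 were detected on at most 1 array and were not tested. The tested genes of the whole array numbered 10142.

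The cells were mouse embryonic fibroblasts (MEFs, connective tissue cells grown out of whole embryos) of a mixed C57BL6/129Sv background, taken at embryonic day 13.5. The 4 genotypes were TKO (Sting +/+ Trex1 -/-), SKO (Sting -/- Trex1 +/+), STKO (Sting -/- Trex1 -/-) and WT (Sting +/+ Trex1 +/+). STING is the adaptor that turns sensing of cytosolic DNA into interferon gene expression, and TREX1 is an exonuclease that removes such DNA. Each genotype received the vehicle DMSO or 20 µg/ml of DMBA, a polycyclic hydrocarbon carcinogen, for 24 or 48 h, and each of the 12 combinations was read on 1 Illumina bead array. No label names separate embryos or cultures, so p-values measure only the spread between these arrays, which may be technical. With 1 array per combination, that spread also holds any DMBA response that differs between genotypes. Such a response widens the standard errors of the mean differences, so a gene that was not called may still have responded. For how long the DMSO cultures were kept is not stated in these sources, and DMBA and time in culture cannot be told apart.

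The 26S proteasome degrades proteins tagged with ubiquitin. Its 20S core is a barrel of alpha rings, which gate entry, and beta rings, which hold the proteolytic sites, and its 19S cap recognizes, unfolds and feeds in the substrate. Subunit genes are known to be induced together through antioxidant response elements by NFE2L1, and in part by NFE2L2, when proteasome activity is short, whereas interferon induces the PA28 activator genes Psme1 and Psme2 along with the immunoproteasome.

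Promoters of 4 genes described below are shown first, as the 300 bases around the gene start that RefSeq gives for GRCm38.p6. Psmb5 and Psmd8 were called after 24 h of DMBA, calls lost in 6 and 5 of 12 alternative settings. Psme2 was called lower in the cells without STING and is shown with its PA28 partner Psme1. Psmb2, whose call at 48 h held in every setting run, is not among the 4. Capitals mark a match, on either strand, to the antioxidant response element core TGACNNNGC or to the interferon-stimulated response element core, a pair of GAAA repeats with 2 bases of any kind between them. The Psmb5 promoter (chr14:54617946-54618245, minus strand) holds TGACGTCGC from position -47, and the Psme1 promoter (chr14:55578244-55578543, plus strand) holds TTTCGCTTTC, the second core read on the reverse strand, from position 10. Neither text occurs in the windows of Psmd8 (chr7:29180624-29180923, minus strand) or of the first of 2 listed starts of Psme2 (chr14:55591052-55591351, minus strand).
Psmb5: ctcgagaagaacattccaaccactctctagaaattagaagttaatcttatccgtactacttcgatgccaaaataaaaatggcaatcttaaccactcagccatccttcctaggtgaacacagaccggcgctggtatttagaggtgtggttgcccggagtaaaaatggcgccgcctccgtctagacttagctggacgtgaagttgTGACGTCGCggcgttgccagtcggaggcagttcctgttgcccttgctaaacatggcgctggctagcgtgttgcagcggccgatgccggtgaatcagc
Psmd8: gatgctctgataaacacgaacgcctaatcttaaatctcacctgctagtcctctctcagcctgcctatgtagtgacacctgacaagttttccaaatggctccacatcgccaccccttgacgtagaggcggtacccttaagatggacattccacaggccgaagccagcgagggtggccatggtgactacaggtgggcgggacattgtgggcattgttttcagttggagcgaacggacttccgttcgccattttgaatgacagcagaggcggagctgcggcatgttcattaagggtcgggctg
Psme1: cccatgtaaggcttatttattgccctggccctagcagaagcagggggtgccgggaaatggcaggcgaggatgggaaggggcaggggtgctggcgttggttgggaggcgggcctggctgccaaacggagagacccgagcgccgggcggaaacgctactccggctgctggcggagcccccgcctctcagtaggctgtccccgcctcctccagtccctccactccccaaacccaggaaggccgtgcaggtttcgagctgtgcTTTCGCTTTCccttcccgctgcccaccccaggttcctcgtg
Psme2: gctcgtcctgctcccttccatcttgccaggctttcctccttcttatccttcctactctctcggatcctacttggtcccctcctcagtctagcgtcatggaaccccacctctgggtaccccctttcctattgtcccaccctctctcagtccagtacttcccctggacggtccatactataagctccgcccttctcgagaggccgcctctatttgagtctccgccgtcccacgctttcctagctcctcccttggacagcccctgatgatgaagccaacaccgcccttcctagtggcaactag
Of the 37 genes, 31 had a promoter in the table. The first core occurred in 6 of them (Psmb5, Psmb6, Psmc6, Psmd12, Psmd9 and Psme4), and the second in 4 (Psmb3, Psmd4, Psmd9 and Psme1). Of all 32851 single promoters, 12.4% held the first and 3.44% the second. A gene was counted where any of its listed promoters matched, so counts of genes and shares of promoters are unlike units. No enrichment can be read from them. A match describes the letters in the window and is not evidence of binding.

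Between 15662 and 16824 probes were detected per array, and the number of arrays limits the precision. The Sting1 probe read 5.38 to 6.01 in SKO and 5.06 to 5.93 in STKO cells, below 7.90 to 8.12 in TKO and 7.80 to 8.05 in WT cells, in normalized log2 signal. The Trex1 probe read 6.45 to 6.91 in TKO and 6.22 to 7.19 in STKO cells, below 8.12 to 8.33 in SKO and 8.62 to 9.46 in WT cells. All 10 fibroblast markers were detected on every array. Of 12 macrophage markers, 9 were detected on at least 1 array, with summed signals (log2) of 11.31 to 12.32 in TKO cells, 13.42 to 14.63 in SKO, 13.77 to 14.66 in STKO and 14.04 to 14.87 in WT cells. All values below are normalized log2 signals unless stated otherwise, differences are in log2 units, and a value after ± is limma's standard error.

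At 24 h of DMBA, 4 of the 37 genes were higher than in DMSO and 0 lower (limma with genotype as a block, p-values adjusted by Benjamini-Hochberg across the tested probes, threshold 0.05). These were the catalytic subunit gene Psmb5, the 19S base scaffold Psmd2, the lid subunit Psmd8 and the 19S assembly chaperone Psmd9, each by 0.40 to 0.66. The 4 are 10.8% of the genes, and over all tested genes 7.04% were called higher and 9.77% lower. Without adjustment 8 of the 37 had p under 0.05. The median difference of the 37 was 0.11 against 0.00 over all tested genes, and 31 of 37 lay above 0 against 5099 of 10142. In bulk RNA, fewer cells of a kind and less RNA per cell cannot be told apart.

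At 48 h, 4 genes were higher than in DMSO (Psmb5, Psmd2, the ATPase Psmc6 and the lid subunit Psmd11) and 4 were lower (the alpha ring gene Psma5, the beta ring gene Psmb2, the lid subunit Psmd13 and the 20S assembly chaperone Psmg1). Each direction is 10.8% of the genes, below the 19.2% of all tested genes called higher and the 21.9% called lower. Mean deposited signals (linear scale) of the genes called higher were 1708 for Psmb5, 232 for Psmd2, 223 for Psmc6 and 707 for Psmd11. For those called lower they were 12551 for Psma5, 9133 for Psmb2, 5652 for Psmd13 and 840 for Psmg1. Whether the direction of a call goes with the brightness of its probe was not tested. The median difference of the 37 was -0.02, as over all tested genes, and 16 of 37 lay above 0. The differences were small beside those of other genes. Their median size was 0.12 at 24 h and 0.18 at 48 h, against 0.22 and 0.32 over all tested genes. Differences over 0.5 occurred in 8.11% of the 37 at 24 h and 5.41% at 48 h, against 18.9% and 32.5% of all tested genes. The 37 were all detected on 12 of 12 arrays, whereas a tested gene needed detection on only 2. Genes of like detection or signal were not compared.

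**Figure D1:**
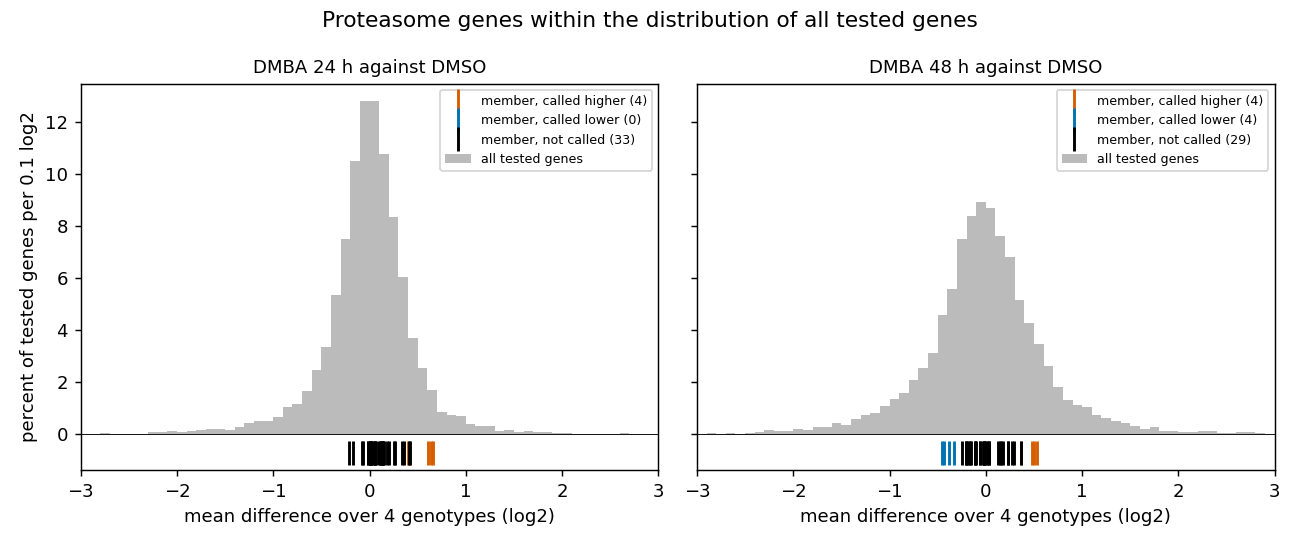
Distribution of the mean difference from DMSO over 4 genotypes (log2, horizontal axis) for all 10142 tested genes (grey bars, percent of genes per 0.1 log2), at 24 h on the left and 48 h on the right, with a tick below the axis for each of the 37 proteasome genes. The ticks span -0.21 to 0.66 at 24 h and -0.46 to 0.53 at 48 h, well inside the grey distribution.

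Most calls were lost when a genotype was left out or under another fit, and that of Psmb2 at 48 h held in every setting run. Leaving out a genotype also takes away 3 of the 12 arrays, so a lost call need not rest on that genotype. The 48 h call of Psmg1 was lost without any one genotype, yet its differences were -0.31 in TKO, -0.33 in SKO, -0.39 in STKO and -0.28 in WT cells. At 24 h the number higher was 0 when the STKO arrays or the WT arrays were left out, 1 without TKO and 2 without SKO, and it was 1 with no filter on dim probes and 1 with genotype left out of the model. At 48 h it was 1 without TKO or without SKO and 2 without STKO or without WT, and 2 with genotype left out of the model, and the number lower was 1 without TKO, 1 without WT, 2 without STKO and 3 without SKO. Marker lists of cell types, fibroblasts included, moved with the treatment too. Of 9 tested macrophage markers 5 were lower at 24 h, and at 48 h 6 were lower and 2, Tyrobp and Lyz2, higher, with summed signals (log2) of 11.89 to 14.87 in DMSO, 11.31 to 14.04 at 24 h and 12.32 to 14.86 at 48 h. Of 10 fibroblast markers 3 were lower at 24 h, and at 48 h 5 were lower and 1 higher. At 48 h, 2 of 4 tested epithelial markers were higher and 1 of 2 tested endothelial markers was lower. Among 2 neural markers 1 was higher and 1 lower at 48 h, and among 3 skeletal muscle markers likewise 1 and 1. The part of these shifts in the results was not tested.

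**Figure D2:**
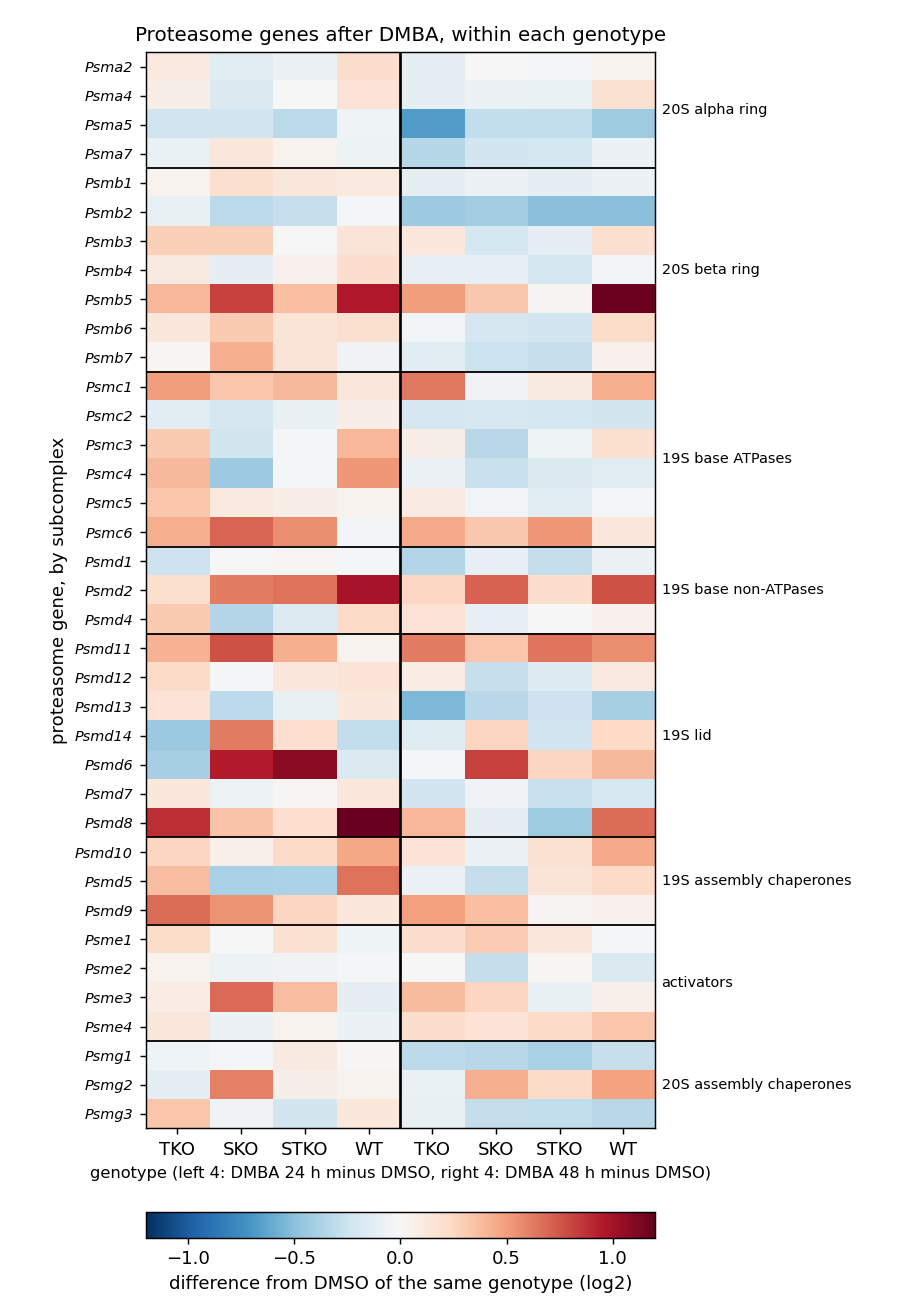
Difference from the DMSO array of the same genotype (log2, colour) for each of 37 proteasome genes (rows, grouped by subcomplex), with TKO, SKO, STKO and WT at 24 h in the left 4 columns and at 48 h in the right 4. Most cells are pale, and single rows such as Psmb5, Psmd2, Psmd6 and Psmd8 carry the deepest colours, up to 1.20 for Psmd8 in WT cells at 24 h.

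In the 20S alpha ring, whose subunits form the gate of the core, 0 of 4 genes were called at 24 h and 1 was lower at 48 h. Psma5 read 13.92, 13.68 and 13.25 in TKO cells (DMSO, 24 h and 48 h in turn, as in the sentences that follow), 13.80, 13.57 and 13.49 in SKO, 13.79, 13.47 and 13.50 in STKO, and 13.73, 13.68 and 13.30 in WT cells. It was lower in all 4 genotypes at both times, and neither set of 4 DMBA arrays overlapped the 4 DMSO arrays. The difference was -0.43 ± 0.11 at 48 h (limma adjusted p = 0.0128) and -0.21 ± 0.11 at 24 h (adjusted p = 0.217). The 48 h call was lost without TKO or without WT. Psma7 read 12.70, 12.62 and 12.36 in TKO cells, 12.53, 12.67 and 12.30 in SKO, 12.59, 12.63 and 12.39 in STKO, and 12.60, 12.55 and 12.53 in WT cells, a 48 h difference of -0.21 ± 0.10 that did not pass (limma adjusted p = 0.117). Psma2 read 14.13, 14.25 and 14.01 in TKO cells, 14.10, 13.95 and 14.10 in SKO, 14.15, 14.08 and 14.14 in STKO, and 14.07, 14.27 and 14.10 in WT cells. Its DMBA and DMSO arrays overlapped at both times, as did those of Psma4, which ranged from 13.66 to 13.98.

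The 20S beta ring held the gene with the most stable call. Psmb2, a structural beta subunit, read 13.38, 13.30 and 12.94 in TKO cells, 13.36, 13.05 and 12.95 in SKO, 13.38, 13.10 and 12.88 in STKO, and 13.29, 13.28 and 12.79 in WT cells. All 4 arrays at 48 h lay below all 4 DMSO arrays, and the second Psmb2 probe was lower as well (-0.33 ± 0.10). The difference was -0.46 ± 0.10 (limma adjusted p = 0.00534), and it was the only one of the 8 calls at 48 h that held under all 12 alternatives tried.

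Psmb5, which carries the chymotrypsin-like site, moved the other way. It read 10.18, 10.58 and 10.67 in TKO cells, 10.45, 11.27 and 10.77 in SKO, 10.58, 10.94 and 10.61 in STKO, and 9.82, 10.78 and 10.99 in WT cells. All 4 genotypes were higher at both times, by 1.18 at 48 h in WT cells and by 0.03 in STKO cells. The differences were 0.64 ± 0.17 at 24 h (limma adjusted p = 0.0356) and 0.50 ± 0.17 at 48 h (adjusted p = 0.0416). The 24 h call was lost whichever genotype was left out, and the 48 h call without TKO, SKO or WT. Both were also lost with no filter on dim probes and with genotype left out of the model.

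The other catalytic subunit genes were not called. Psmb6, of the caspase-like site, read 12.91, 13.05 and 12.88 in TKO cells, 12.88, 13.20 and 12.68 in SKO, 12.90, 13.05 and 12.67 in STKO, and 12.74, 12.93 and 12.96 in WT cells. Psmb7, of the trypsin-like site, read 12.92, 12.94 and 12.79 in TKO cells, 12.83, 13.26 and 12.57 in SKO, 12.97, 13.12 and 12.70 in STKO, and 12.83, 12.79 and 12.87 in WT cells. Psmb6 was above DMSO in 4 of 4 genotypes at 24 h (0.20 ± 0.11, limma adjusted p = 0.259) and in 1 of 4 at 48 h (-0.06 ± 0.11, adjusted p = 0.702). Psmb7 was above in 3 of 4 at 24 h and in 1 of 4 at 48 h, with WT cells the exception each time. The remaining beta genes Psmb1, Psmb3 and Psmb4 had differences between -0.11 and 0.18 that were not called.

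Among the 6 ATPases of the 19S base, which unfold the substrate, 0 were called at 24 h and 1 at 48 h. Psmc6 read 7.17, 7.61 and 7.62 in TKO cells, 7.19, 7.89 and 7.51 in SKO, 6.86, 7.42 and 7.39 in STKO, and 7.30, 7.27 and 7.44 in WT cells. All 4 arrays at 48 h lay above the DMSO arrays, with the smallest step in WT cells. The difference of 0.36 ± 0.13 at 48 h sat at the threshold (limma adjusted p = 0.05 after rounding) and was called in 4 of 12 alternatives, and that of 0.42 ± 0.13 at 24 h just missed it (adjusted p = 0.0537). Psmc1 read 10.99, 11.49 and 11.62 in TKO cells, 11.05, 11.38 and 11.01 in SKO, 11.14, 11.53 and 11.25 in STKO, and 11.05, 11.19 and 11.49 in WT cells. Its 24 h arrays all exceeded its DMSO arrays, but the difference of 0.34 ± 0.14 did not pass (limma adjusted p = 0.12). Psmc2 read 13.82, 13.69 and 13.62 in TKO cells, 13.70, 13.50 and 13.51 in SKO, 13.73, 13.64 and 13.52 in STKO, and 13.69, 13.77 and 13.47 in WT cells. Its 48 h arrays were all below its DMSO arrays (-0.21 ± 0.10, limma adjusted p = 0.115), while its second probe had a difference of 0.37 ± 0.14. Psmc3, Psmc4 and Psmc5 had differences between -0.16 and 0.14, not called.

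In the rest of the 19S base, the scaffold gene Psmd2 rose. It read 7.20, 7.39 and 7.45 in TKO cells, 7.14, 7.75 and 7.85 in SKO, 7.28, 7.94 and 7.49 in STKO, and 6.71, 7.71 and 7.47 in WT cells. The DMBA arrays lay above the DMSO arrays at both times. The differences were 0.61 ± 0.14 at 24 h (limma adjusted p = 0.021) and 0.48 ± 0.14 at 48 h (adjusted p = 0.0235). The 24 h call was lost without STKO or WT and the 48 h call without SKO or WT and with probes averaged, and a second, dimmer probe gave 0.47 ± 0.17 at 24 h and 0.15 ± 0.17 at 48 h, neither called. Psmd1, the other large scaffold, read 13.47, 13.21 and 13.12 in TKO cells, 13.35, 13.34 and 13.25 in SKO, 13.44, 13.45 and 13.15 in STKO, and 13.30, 13.29 and 13.23 in WT cells. Its 48 h arrays were all below its DMSO arrays, by a difference that did not pass (-0.20 ± 0.10, limma adjusted p = 0.131). Psmd4, a ubiquitin receptor, read 12.96, 13.26 and 13.12 in TKO cells, 12.99, 12.64 and 12.89 in SKO, 13.04, 12.88 and 13.03 in STKO, and 12.89, 13.12 and 12.94 in WT cells, with differences of 0.00 at 24 h and 0.03 at 48 h. Its 24 h mean joins opposite signs, with 0.31 in TKO and 0.23 in WT cells against -0.35 in SKO and -0.16 in STKO cells. The 24 h response without STING minus that with it was -0.52 ± 0.16, which did not pass (limma interaction, adjusted p = 0.0811).

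The 19S lid, which removes the ubiquitin chain, held calls in both directions. Psmd11, which braces the lid against the core, read 8.85, 9.27 and 9.46 in TKO cells, 9.01, 9.77 and 9.34 in SKO, 9.13, 9.57 and 9.76 in STKO, and 9.00, 9.04 and 9.56 in WT cells. The 48 h arrays were all above the DMSO arrays (0.53 ± 0.14, limma adjusted p = 0.0154), a call lost without TKO or STKO, and the 24 h difference was 0.41 ± 0.14 (adjusted p = 0.0786). Its second probe had a 48 h difference of 0.21 ± 0.16, not called. Psmd13 read 12.54, 12.71 and 12.00 in TKO cells, 12.62, 12.31 and 12.29 in SKO, 12.65, 12.56 and 12.39 in STKO, and 12.51, 12.64 and 12.10 in WT cells. The 48 h arrays were all below the DMSO arrays (-0.38 ± 0.13, limma adjusted p = 0.0352), a call lost without TKO, STKO or WT. Psmd7, the partner of the deubiquitinase Psmd14, read 12.16, 12.29 and 11.92 in TKO cells, 12.10, 12.05 and 12.06 in SKO, 12.19, 12.20 and 11.93 in STKO, and 12.06, 12.19 and 11.86 in WT cells. It was below DMSO in 4 of 4 genotypes at 48 h (-0.18 ± 0.10, limma adjusted p = 0.169), while 1 of its other 2 probes had a difference of 0.44 ± 0.16. Psmd6, Psmd12 and Psmd14 had differences between -0.06 and 0.36, not called.

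Psmd8, a lid subunit named here because it makes up 1 of the 4 calls at 24 h and chosen after its values were seen, read 11.53, 12.43 and 11.93 in TKO cells, 12.08, 12.42 and 11.96 in SKO, 12.40, 12.59 and 11.97 in STKO, and 11.27, 12.47 and 11.94 in WT cells. The 24 h arrays were all above the DMSO arrays, and the 48 h arrays were not. The difference was 0.66 ± 0.18 at 24 h (limma adjusted p = 0.0346), lost without TKO, STKO or WT, with no filter on dim probes and with genotype left out of the model, and 0.13 ± 0.18 at 48 h (adjusted p = 0.598).

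**Figure D3:**
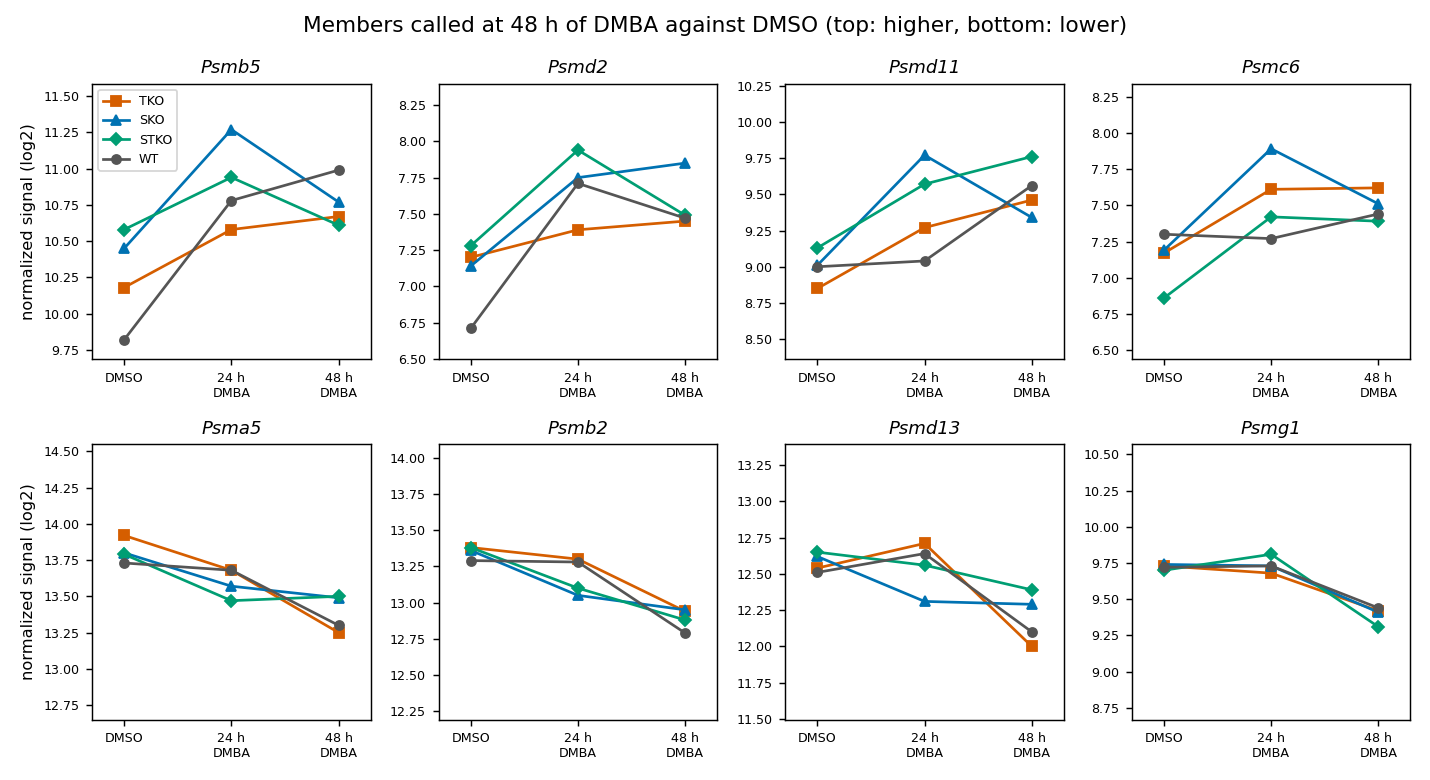
Normalized signal (log2, vertical axis, a range of equal length in each panel) in DMSO, at 24 h and at 48 h of DMBA for the 8 proteasome genes called at 48 h, 1 line per genotype and 1 array per point. Psmb5, Psmd2, Psmd11 and Psmc6 (top) end above all DMSO points, and Psma5, Psmb2, Psmd13 and Psmg1 (bottom) end below them.

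The 19S assembly chaperones help the base ATPases come together. Psmd5, described with the STING comparison, had differences of 0.06 ± 0.19 at 24 h and 0.01 ± 0.19 at 48 h. Psmd9 read 7.76, 8.43 and 8.25 in TKO cells, 7.60, 8.14 and 7.96 in SKO, 8.27, 8.53 and 8.29 in STKO, and 8.12, 8.24 and 8.16 in WT cells. It was above DMSO in 4 of 4 genotypes at both times, although the arrays overlapped across genotypes. The difference was 0.40 ± 0.12 at 24 h (limma adjusted p = 0.0459) and 0.23 ± 0.12 at 48 h (adjusted p = 0.142). The 24 h call was lost whichever genotype was left out, and also under median scaling, with no filter on dim probes, with probes averaged and with genotype left out of the model. The second probe differed by 0.09 ± 0.15. Psmd10, also known as gankyrin, read 10.80, 11.06 and 10.95 in TKO cells, 10.88, 10.94 and 10.81 in SKO, 10.80, 11.03 and 10.99 in STKO, and 10.83, 11.29 and 11.28 in WT cells. Its 24 h arrays all exceeded its DMSO arrays (0.25 ± 0.11, limma adjusted p = 0.134), and 1 of its other 2 probes was called higher at 48 h (0.46 ± 0.11).

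The 20S assembly chaperones assist the building of the alpha ring. Psmg1 read 9.73, 9.68 and 9.42 in TKO cells, 9.74, 9.73 and 9.41 in SKO, 9.70, 9.81 and 9.31 in STKO, and 9.72, 9.73 and 9.44 in WT cells. The 48 h arrays lay below every DMSO and every 24 h array. The difference was -0.33 ± 0.09 from DMSO (limma adjusted p = 0.018) and -0.34 ± 0.09 from 24 h (adjusted p = 0.0422). Both calls were lost when any one genotype was left out and under median scaling. Psmg3 read 9.64, 9.97 and 9.55 in TKO cells, 9.83, 9.79 and 9.54 in SKO, 9.87, 9.65 and 9.57 in STKO, and 9.69, 9.82 and 9.36 in WT cells, with a 48 h difference of -0.25 ± 0.11 (limma adjusted p = 0.0975). Psmg2, the partner of Psmg1, read 10.13, 10.01 and 10.05 in TKO cells, 10.00, 10.60 and 10.44 in SKO, 10.13, 10.20 and 10.36 in STKO, and 9.93, 9.97 and 10.40 in WT cells. Its 48 h difference was 0.27 ± 0.14 (limma adjusted p = 0.154), and of its other 2 probes 1 pointed the other way (-0.30 ± 0.17).

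Counted as non-overlapping arrays, 7 of 37 genes had all 4 arrays at 24 h above all 4 DMSO arrays (7.67% of all tested genes) and 1 had them below (10.5%). At 48 h, 5 lay above (16.9%) and 8 below (18.7%). The 8 were Psma5, Psmb1, Psmb2, Psmc2, Psmd1, Psmd13, Psmg1 and Psmg3, and the 5 were Psmb5, Psmc6, Psmd2, Psmd11 and Psme4.

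From 24 to 48 h of DMBA most of the genes had a difference below 0, and 1 was called. Of the 37, 6 were above 0 in the difference of 48 h from 24 h, against 4856 of all 10142 tested genes, and the median was -0.14 against -0.01. The medians of all 8 subcomplexes were below 0, from -0.01 in the activators to -0.30 in the 20S assembly chaperones, and 3 of the 27 subunits of the 26S particle lay above 0. A single gene, Psmg1, was called lower and 0 were called higher (limma), with 5.15% of all tested genes lower and 5.32% higher. Without adjustment 11 of the 37 had p under 0.05. The number lower was 0 whichever genotype was left out. Under median scaling the median of the 37 was -0.13 while that of all tested genes was 0.05. The difference of Psmd8 was -0.53 ± 0.18, which did not pass (limma adjusted p = 0.0899).

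By genotype, the median difference of the 37 genes from DMSO at 24 h was 0.14 in TKO cells, 0.00 in SKO, 0.07 in STKO and 0.13 in WT cells, and at 48 h it was -0.03, -0.10, -0.11 and 0.05 in the same order. In SKO cells the genes spread more widely at 24 h, with an interquartile range of 0.57 against 0.31 in TKO and 0.22 in STKO and in WT cells. Over all tested genes that range was 0.65 in TKO, 0.52 in SKO, 0.49 in STKO and 0.60 in WT cells, so the SKO spread was near that of all genes while the others were narrower. Each of these values rests on 2 arrays and has no replicate.

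Between genotypes, the 1 gene called was Psme2, a component of the PA28 activator. PA28 is a ring of Psme1 and Psme2 products that opens the 20S core and is induced by interferon. Psme2 read 9.23, 9.17 and 8.94 in SKO cells (DMSO, 24 h and 48 h) and 8.96, 8.93 and 8.98 in STKO cells, against 9.78, 9.82 and 9.78 in TKO cells and 9.78, 9.76 and 9.61 in WT cells. Every array without STING was below every array with it. The arrays of a genotype differ in treatment, and no label names separate embryos or cultures within a genotype. Genotype and cell preparation therefore cannot be told apart, here or in the genotype comparisons that follow. Psme2 was lower in SKO than in WT cells by a difference of -0.60 ± 0.11 (limma adjusted p = 0.0113) and in STKO than in WT cells by -0.76 ± 0.11 (adjusted p = 0.00371). It was the 1 gene of 37 called in each comparison, where 4.28% of all tested genes were lower in SKO and 3.20% in STKO cells. The SKO call was lost without the 24 h or the 48 h arrays, and the STKO call without the DMSO or the 24 h arrays.

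Psme1 read 11.36, 11.36 and 11.66 in SKO cells and 11.26, 11.44 and 11.40 in STKO cells, against 12.13, 12.35 and 12.34 in TKO cells and 11.85, 11.79 and 11.84 in WT cells. Arrays without STING again all lay below those with it, and the TKO arrays lay above the WT arrays. The differences from WT were -0.37 ± 0.12 in SKO (limma adjusted p = 0.103), -0.46 ± 0.12 in STKO (adjusted p = 0.0582) and 0.44 ± 0.12 in TKO cells (adjusted p = 0.0668). None passed, but that of STKO passed under 7 alternatives and that of TKO under 5, and a second Psme1 probe was called higher in TKO cells (0.51). On that second probe the arrays overlapped, with 10.62 in SKO cells at 48 h against 10.24 in WT cells in DMSO. Psme1 and Psme2 were the 2 of 37 genes with all 6 arrays of SKO and STKO below all 6 of TKO and WT, a pattern held by 1.30% of all tested genes, and 0 genes had them above (0.661%). The pattern was counted after these values were seen.

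The 3 immunoproteasome genes, excluded from the 37, are also interferon-induced. Psmb8 and Psmb9 were lower in both genotypes without STING than in WT cells and higher in TKO cells. Psmb8 read 7.55 to 8.27 in SKO and 7.82 to 8.14 in STKO cells, against 10.10 to 11.10 in TKO and 9.43 to 9.71 in WT cells. Its differences from WT were -1.70 ± 0.20 in SKO, -1.61 ± 0.20 in STKO and 1.14 ± 0.20 in TKO cells (limma adjusted p = 0.000986, 0.00152 and 0.00866). Psmb9 differed by -1.12 ± 0.23, -1.29 ± 0.23 and 1.13 ± 0.23 in that order, all called. Psmb10 was called in STKO (-0.63 ± 0.15, limma adjusted p = 0.0452) and not in SKO (-0.48 ± 0.15, adjusted p = 0.0972) or TKO cells (0.53 ± 0.15, adjusted p = 0.09). After 48 h of DMBA, Psmb8 was called higher than in DMSO (0.49 ± 0.18, limma adjusted p = 0.0482), and Psmb9 and Psmb10 were not called.

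**Figure D4:**
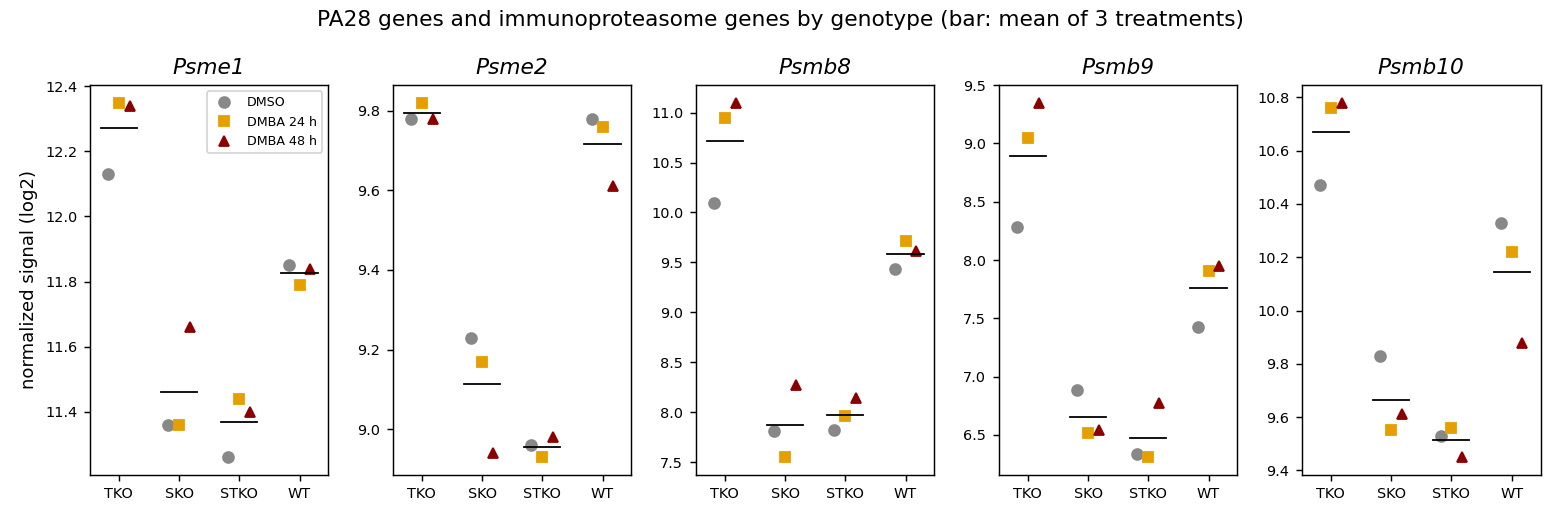
Normalized signal (log2) of the PA28 genes Psme1 and Psme2 and of the immunoproteasome genes Psmb8, Psmb9 and Psmb10 in TKO, SKO, STKO and WT cells, with 1 marker per treatment and a bar at the mean of the 3, and a vertical scale of its own in each panel. For Psme2 the 6 arrays of SKO and STKO lie between 8.93 and 9.23, below 9.61 to 9.82 in TKO and WT cells.

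The other activators were not called between genotypes. Psme3, a nuclear activator, read 10.19, 10.27 and 10.57 in TKO cells, 10.34, 11.03 and 10.60 in SKO, 10.36, 10.74 and 10.27 in STKO, and 10.26, 10.15 and 10.32 in WT cells, a difference of 0.42 ± 0.18 in SKO from WT (limma adjusted p = 0.214). Psme4, the nuclear activator PA200, read 11.74, 11.88 and 11.95 in TKO cells, 11.90, 11.84 and 12.06 in SKO, 11.77, 11.81 and 12.01 in STKO, and 11.86, 11.78 and 12.18 in WT cells. Its 48 h arrays were all above its DMSO arrays (0.23 ± 0.10, limma adjusted p = 0.0803), and a dim second probe was called higher (0.52 ± 0.14). In the DMBA comparisons 0 of the 4 activators were called on the probes used. The second Psme1 probe, however, was above DMSO in 4 of 4 genotypes at both times and called higher at 24 h (0.36 ± 0.11, limma adjusted p = 0.0475) and at 48 h (0.47 ± 0.11, adjusted p = 0.00671), where the probe used gave 0.09 ± 0.10 and 0.16 ± 0.10. With probes averaged, Psme1 and Psme4 were called at 48 h. The differences of Psme2 were -0.02 ± 0.10 at 24 h and -0.11 ± 0.10 at 48 h.

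In TKO against WT cells 0 of 37 genes were called in either direction by limma, where 2.39% of all tested genes were higher and 3.48% lower, and 1 had an unadjusted p under 0.05. Of the alternatives 5 called 1 gene higher, Psme1. No gene was called higher in SKO (2.74% of all tested genes) or STKO cells (1.94%), and 4 and 2 of the 37 had an unadjusted p under 0.05 in these 2 comparisons. Of the 9 tested macrophage markers 7 were lower in TKO, 1 in SKO and 0 in STKO than in WT cells. Their part in the genotype differences was not tested.

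Whether the response to DMBA depended on STING was tested as the response of SKO and STKO cells minus that of TKO and WT cells. At 24 h 1 of 37 genes was called higher (Psmd6) and 1 lower (Psmd5), with 3.36% and 2.73% of all tested genes called. Psmd6, a lid subunit, read 8.70, 9.64 and 9.51 in SKO and 9.08, 10.16 and 9.34 in STKO cells, against 9.11, 8.71 and 9.09 in TKO and 9.22, 9.05 and 9.62 in WT cells. At 24 h both genotypes without STING lay above both with it, and in DMSO below them. The mean response was 1.01 without STING and -0.28 with it, a difference of 1.30 ± 0.26 (limma adjusted p = 0.0383). Its second probe gave 1.16, which did not pass (adjusted p = 0.0977).

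Psmd5, a chaperone of the 19S base, went the other way. It read 8.18, 7.79 and 7.89 in SKO and 8.17, 7.78 and 8.32 in STKO cells, against 7.93, 8.29 and 7.86 in TKO and 7.74, 8.39 and 7.97 in WT cells. The genotypes without STING were the higher in DMSO and the lower at 24 h. The mean response was -0.38 without STING and 0.51 with it, a difference of -0.89 ± 0.21 (limma adjusted p = 0.0494). With the 3 arrays of any one genotype left out, a check added after seeing the data that leaves 2 residual degrees of freedom, neither gene was called, and 0 of 37 were. Under the other alternatives the number higher was 0 to 2 and the number lower 0 to 5.

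A further 3 genes had the next smallest p and are named after their values were seen. Psmd8 had mean responses at 24 h of 0.27 without STING and 1.05 with it, a difference of -0.78 ± 0.19 (limma adjusted p = 0.0505). Its arrays without STING read 12.08 and 12.40 in DMSO, against 11.53 and 11.27 with it, whereas at 24 h all 4 lay between 12.42 and 12.59 and at 48 h between 11.93 and 11.97. The arrays thus lay apart in DMSO and close together after DMBA. Psmc4, an ATPase, read 12.55, 12.11 and 12.28 in SKO and 12.53, 12.51 and 12.36 in STKO cells, against 12.43, 12.82 and 12.36 in TKO and 12.28, 12.81 and 12.16 in WT cells (-0.69 ± 0.19, limma adjusted p = 0.0672). Psmd14, the deubiquitinase of the lid, read 10.82, 11.45 and 11.08 in SKO and 10.93, 11.13 and 10.70 in STKO cells, against 10.90, 10.45 and 10.75 in TKO and 10.71, 10.42 and 10.95 in WT cells (0.79 ± 0.22, limma adjusted p = 0.0706). Both had separate genotypes at 24 h, Psmc4 with the cells without STING the lower and Psmd14 with them the higher.

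**Figure D5:**
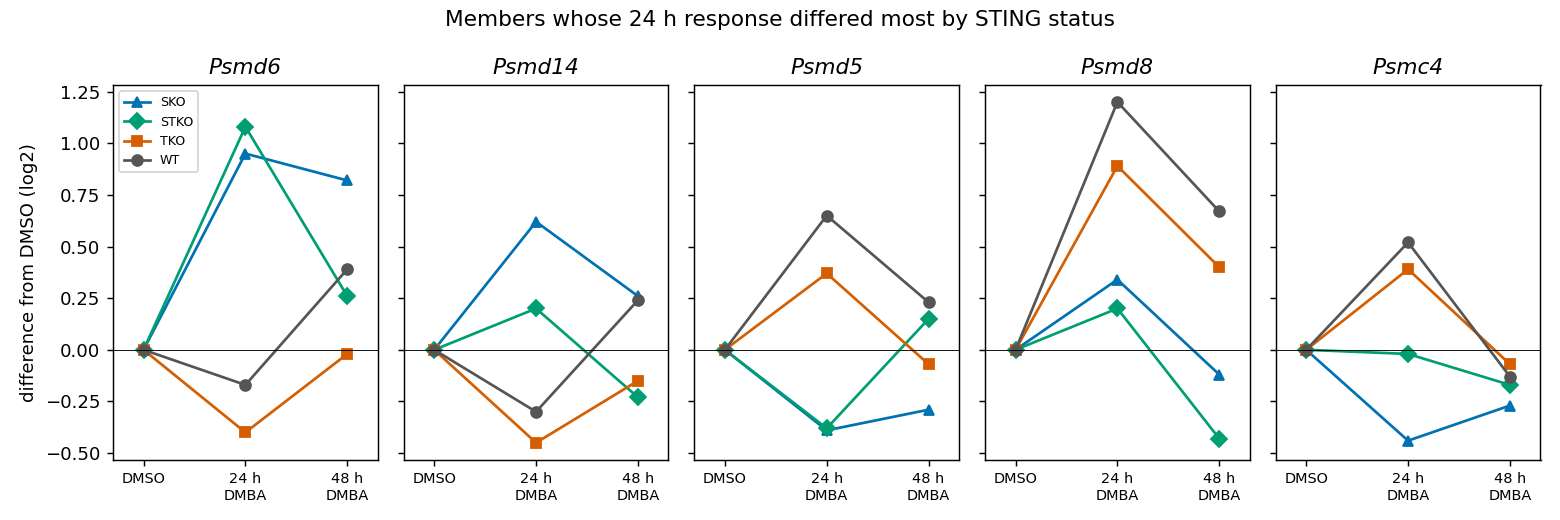
Difference from the DMSO array of the same genotype (log2) at 24 h and 48 h of DMBA in SKO, STKO, TKO and WT cells for the 5 proteasome genes with the smallest p in the test of STING status at 24 h, 1 array per point and DMSO at 0. For Psmd6 and Psmd14 the SKO and STKO points lie above TKO and WT at 24 h, and for Psmd5, Psmd8 and Psmc4 below them.

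The DMSO arrays enter every such response. In DMSO, 11 of 37 genes read higher in both genotypes without STING than in both with it (24.2% of all tested genes), and 5 read lower (22.6%), a count made after the values were seen. At 48 h 0 of 37 genes were called by limma for STING status (2.97% of all tested genes higher, 2.28% lower), 3 had an unadjusted p under 0.05, and 6 alternatives called 1 or 2 genes lower. Psmd8 was again the nearest (-0.81 ± 0.19, limma adjusted p = 0.0505), with mean responses of -0.27 without STING and 0.53 with it. For Trex1 status 0 of 37 genes were called by limma at 24 h or 48 h, 0 had an unadjusted p under 0.05, and 0 were called under any alternative run. Over all tested genes the share called was 0%.

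Partners of the proteasome gave few calls. Over all tested genes 19.2% were called higher at 48 h of DMBA and 3.36% higher for STING status at 24 h. Of 7 tested genes of other subunits and assembly factors, Zfand2a, a stress-induced factor that binds the 19S cap, was the 1 called at 48 h. It read 10.26, 11.30 and 11.52 in TKO cells, 10.26, 10.13 and 10.36 in SKO, 10.37, 10.60 and 10.98 in STKO, and 10.36, 10.90 and 11.07 in WT cells (0.66 ± 0.18, limma adjusted p = 0.0148). The step was smallest in SKO cells. Of 9 tested genes of ubiquitin delivery and proteasome gene regulation, Nfe2l2, a regulator of the antioxidant response, was the 1 called higher at 48 h. It read 8.70, 9.32 and 9.21 in TKO cells, 9.07, 8.83 and 9.10 in SKO, 8.89, 9.02 and 9.32 in STKO, and 9.03, 9.54 and 9.64 in WT cells (0.40 ± 0.14, limma adjusted p = 0.0484). Nfe2l1, the regulator of proteasome genes, was the 1 partner called for STING status at 24 h and is named after its values were seen. It read 12.05, 12.11 and 11.90 in SKO and 11.93, 11.90 and 11.82 in STKO cells, against 12.06, 11.41 and 11.45 in TKO and 12.45, 11.67 and 11.63 in WT cells (0.73 ± 0.16, limma adjusted p = 0.0427). The cells with STING were the lower at both times of DMBA.

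Where a gene had several probes the choice of probe mattered. Of 18 genes with more than 1 tested probe, 5 at 24 h and 7 at 48 h had probes of opposite sign, and the median range between the probes of a gene at 48 h was 0.275. For STING status at 24 h, probes other than the one used were called for Psmd1 (1.07, limma adjusted p = 0.0373) and Psmg2 (-0.71, adjusted p = 0.042), where the probes used gave 0.14 and 0.37, not called.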

How the data were processed

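Per the file headers, the deposited signal file gives a signal and a detection value per probe on each of 12 arrays. The deposited signals are intensities on a linear scale without normalization between arrays. The deposited detection value is a score that rises with the signal (Spearman correlation 0.98 to 0.9895), so 1 minus it was read as the detection p. The authors' value table is in log2 units and equals quantile-normalized log2 signals minus each probe's median (largest difference 0.00125), and it was not used as the main input. The sources used here name neither scanner nor software.

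Signals were background corrected and quantile normalized with neqc (limma 3.58.1, R 4.3.3, offset 16). A probe was tested where its detection p was below 0.01 on 2 or more of the 12 arrays (18389 probes), and each gene was represented by its brightest tested probe. Microarray annotation gave the gene symbols, and RefSeq (GRCm38.p6) gave chromosomes and promoters. Limma models held genotype and treatment (6 residual degrees of freedom), or these and the interaction of STING or Trex1 status with treatment (4 residual degrees of freedom), 2-sided, adjusted by Benjamini-Hochberg over all tested probes.

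The genes, lists and tests were chosen with earlier results of these data known. Values on every array were given for the 3 genes of each subcomplex with the smallest p at 48 h, the catalytic subunits, the activators, genes called by genotype or interaction, and called partners. Alternatives changed the background correction, scaling, filter, probe, offset, variance model and block, and left out each genotype or treatment. Of the comparisons, only that of 48 h of DMBA with DMSO was tried on simulated data, with normal noise and no genotype effects. The genotype comparisons and the interactions were not tried in this way. Genotype blocks the treatments, since each genotype holds every treatment; the labels tie no 2 arrays to 1 culture.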

Additional observations from a re-analysis of the deposited data

Results flagged for a closer look

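The response of Psmd6 to 24 h of DMBA differed with STING status by 1.30 ± 0.26 in log2 units (limma interaction, adjusted p = 0.0383). It was 0.95 in SKO and 1.08 in STKO cells, against -0.40 in TKO and -0.17 in WT cells, and the 2 pairs moved in opposite directions. The response of Psmd5 differed by -0.89 ± 0.21 (limma interaction, adjusted p = 0.0494). It was -0.39 in SKO and -0.38 in STKO cells, against 0.37 in TKO and 0.65 in WT cells, again in opposite directions. Adjusted p over 11 alternatives ranged from 0.00708 to 0.235 for Psmd6 and from 0.0245 to 0.244 for Psmd5.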

How the results depend on the processing

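No called difference turned its sign under the alternatives run. Of 17 calls of named genes, Psmb2 at 48 h passed in 12 of 12 alternatives (adjusted p 0.000873 to 0.0419) and each of the others failed in at least 2. Median scaling in place of quantile left 0 genes lower from 24 to 48 h, 2 lower in STKO, 2 higher for STING status at 24 h and 1 lower at 48 h. Over all tested genes it put the share of calls that were higher at 68.0% from 24 to 48 h (50.8% with quantile), 28.9% in SKO (39%), 27.3% in STKO (37.7%) and 54.8% at 48 h (46.7%), made 320 genes lower from 24 to 48 h in place of 522, and moved the median of all genes by at most 0.07. Without background correction, with the offset at 50 or with a filter on all 12 arrays, STKO had 2 lower, STING status at 24 h 2 higher and 3 or 4 lower, and STING status at 48 h 1 lower. Without background correction or with the offset at 50, TKO had 1 higher. With no filter on dim probes 1 gene was higher at 24 h, 2 lower from 24 to 48 h, 1 higher in TKO, 2 lower in STKO, and 0 were called in either direction for STING status at 24 h. With probes averaged per gene 1 was higher in TKO, 2 lower in STKO, 2 lower for STING status at 24 h and 1 at 48 h. In 48 h of DMBA against DMSO it called 10 genes, 7 of them among the 8 of the main setting, and gained Psmd10, Psme1 and Psme4. With trended, robust variances 2 were lower from 24 to 48 h, 1 higher in TKO, 2 lower in STKO, 2 higher and 5 lower for STING status at 24 h and 2 lower at 48 h. That setting also called 10 genes in 48 h of DMBA against DMSO, 7 of them shared with the main 8, and gained Psmc2, Psmd1 and Psme4. With no replicate block, that is without genotype in the model, 1 was higher at 24 h and 2 at 48 h. Leaving out 1 genotype or treatment at a time gave 0 to 2 higher at 24 h, 1 to 2 higher and 1 to 3 lower at 48 h, 0 lower from 24 to 48 h, 0 to 1 lower in SKO and in STKO, and 0 called for STING status at 24 h. Some settings held fewer arrays or more probes, and why calls changed was not tested in any setting. With 1 array per genotype and treatment, the printed standard errors set what could be called, and the labels give the arrays no replicate numbers.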
